A study of Mus musculus with 6 samples.

Results

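Transcripts of the tumour necrosis factor (TNF) ligand and receptor superfamilies were compared between Ebf1-deficient pre-pro-B cells that carried an Ebf1 retrovirus and the same kind of cells that carried a control retrovirus. The members were the array probes named Tnfrsf or Tnfsf with a number, together with Cd40, Cd40lg, Cd27, Cd70, Fas, Fasl, Lta, Ltb, Ltbr and Tnf. This gave 41 genes on 57 probes, among 28307 gene or sequence names on 41174 probes. The rule reads names only, but the members were chosen with earlier results of these data known. Of the 41 genes, 17 encode ligands and 24 encode receptors.

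Of the 6 arrays, 3 held Ebf1-/- cells infected with pMYs-Ebf1-IRES-EGFP, a vector that makes Ebf1 and green fluorescent protein from 1 transcript, with the insert named Ebf1beta in the sample titles. The other 3 arrays held Ebf1-/- cells infected with pMYs-IRES-EGFP, which makes the fluorescent protein alone. By label, all cells were therefore deficient in endogenous Ebf1, a transcription factor that B cell development requires, and both groups had passed through the same packaging line (Plat-E), polybrene and spin infection. Both groups were cultured over a layer of OP9 stroma, in medium with Flt3 ligand, stem cell factor and interleukin 7 at 10 ng/ml each, and were sorted for green fluorescence 24 h after infection, so a group is a bulk population in which only infected cells were kept. Sex and age of the donor mice are not given in the sources used here. Nothing states that the 3 replicates of a group came from separate mice or cultures, so the p-values measure only the spread between these samples, which may be technical.

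Members of the TNF receptor superfamily are surface proteins that bind trimeric ligands, most of which are themselves made as membrane proteins and can be shed. Receptors with an intracellular death domain recruit adaptors that lead to caspases, and the other signalling receptors bind TRAF adaptors that lead to NF-kB, the transcription factor family of inflammation and lymphocyte survival. In B cells, the receptors for the survival factor BAFF and the costimulatory receptor CD40 govern survival and the response to T cell help, whereas lymphotoxins, RANK ligand and their receptors shape lymphoid organs and bone.

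Levels below are log2 processed signals after subtraction of the 75th percentile of the array's log2 signals, so a level of 0 equals that percentile and dim probes have negative levels. Signals at the 75th percentile were 316 to 364 on the Ebf1 virus arrays and 240 to 366 on the control arrays, in linear scanner units. The share of spots well above background was 50.5% to 60.1% on the Ebf1 virus arrays and 46.6% to 50.5% on the control arrays. Ebf1 replicate 3 stood apart at 60.1%, against at most 53.0% on the other 5 arrays. Correlations over probes were 0.984 to 0.993 within a group and 0.938 to 0.958 between groups. Of the 2 probes for Ebf1 itself, 1 was well above background on all arrays, at 0.22, 0.40 and 0.27 on the Ebf1 virus arrays, against 0.86, 0.10 and 0.36 on the control arrays. Its log2 change of -0.15 was not called (adjusted p = 0.65), and the other was well above background on none of the arrays. The sources used here say neither which part of Ebf1 the virus carries nor which part the deletion removes, so these probes do not check the labels. All 5 tested genes of a list of 7 markers of committed B cells were higher on the Ebf1 virus arrays, where the list's summed linear signal was 509 to 563 times the 75th percentile, against 1.59 to 1.83 on the control arrays (Cd79a was well above background on none of the 6 arrays).

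Most receptors that changed were higher in Ebf1 virus cells, and all ligands that changed were lower, although the difference between the classes was not tested. Of the 18 receptors with a tested probe, 7 were higher in Ebf1 virus cells, 2 were lower and 9 were not called. Of the 8 tested ligands, none was higher, 5 were lower and 3 were not called. Cd40, Tnfrsf18, Tnfrsf9, Tnfrsf25, Tnfrsf13b, Tnfrsf1b and Tnfrsf26 rose, and Tnfsf10, Tnfrsf21, Tnfsf11, Ltb, Tnfsf8, Cd27 and Tnf fell. A gene was called at an adjusted p under 0.05 (limma, over all 20452 tested probes), and was represented by its brightest tested probe. In these bulk samples, fewer cells of a type and less RNA per cell cannot be told apart.

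Over the family, 7 of 26 tested genes (26.9%) were called higher, against 12.6% of the 13835 genes tested, and 7 of 26 (26.9%) were called lower, against 11.0%. By probe, 9 of 31 were higher, against 11.5% of all tested probes, and 9 of 31 were lower, against 10.2%. The median log2 change was 0.46 over the tested receptors and -0.97 over the tested ligands, beside -0.06 over all genes tested. On all 14 called genes the 3 Ebf1 virus arrays and the 3 control arrays did not overlap, and the same held for 6 of the 12 genes not called. The share without overlap was not counted over all genes tested, so these counts show nothing particular to the family. A scaling by the array median in place of the 75th percentile shifted the median log2 change of all probes to -0.37, beside -0.06. It called 4 receptors higher and kept the 5 ligand and 2 receptor calls in the other direction. Over all probes it turned the share of higher calls to 32.2%, beside 53.0% in the scaling used here.

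**Figure D1:**
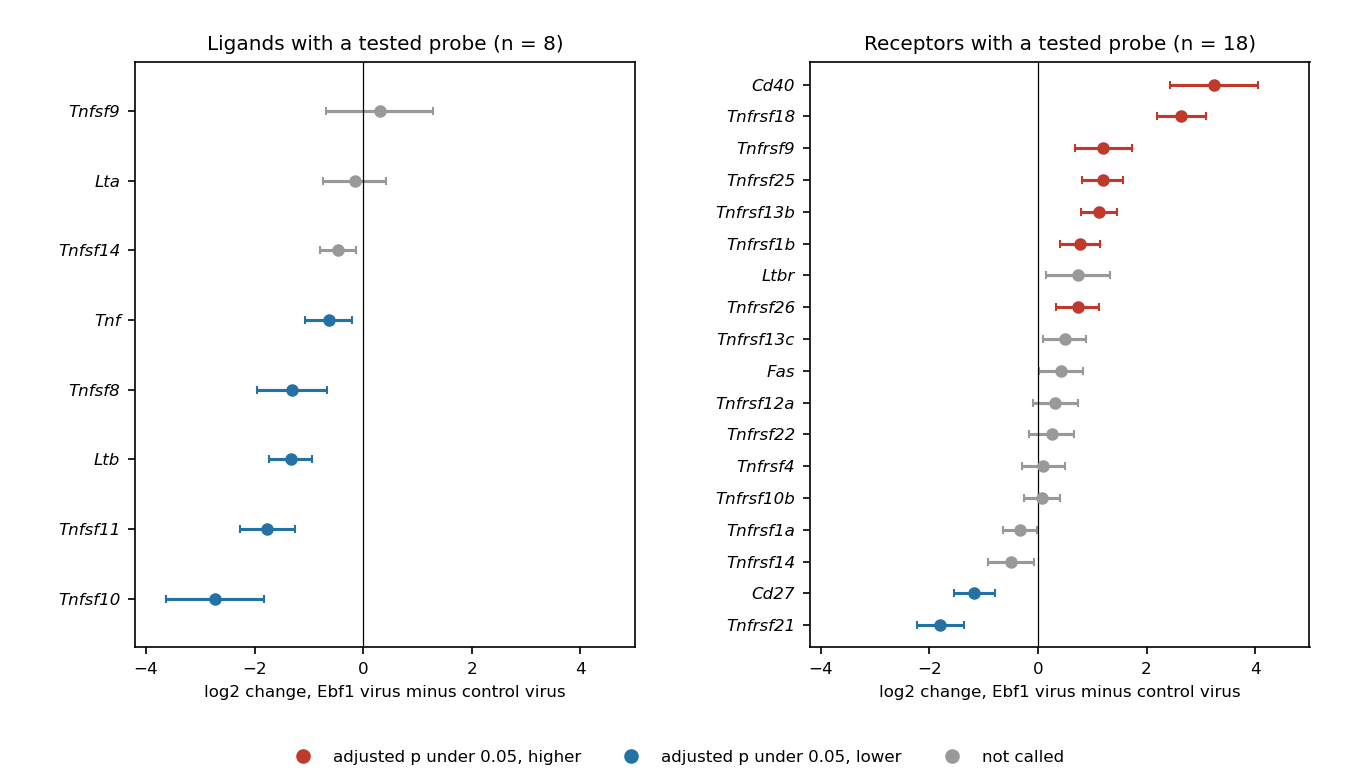
Log2 change (Ebf1 virus minus control virus) of the 8 ligands and 18 receptors with a tested probe, with the 95% interval of the limma fit (n = 3 arrays per group). Called genes are coloured, and no ligand lies among the genes called higher. For Cd40 and Tnfrsf22 no control array was well above background, so their points are no sizes.

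Arrays lay on 3 slides: Ebf1 replicate 1 shared a slide with control replicate 2, Ebf1 replicates 2 and 3 shared another, and control replicates 1 and 3 shared the third. Only 1 slide therefore held both groups, and with slide as a fixed term the estimate is the difference between its 2 arrays. All 26 tested genes had the same sign there as in the whole comparison, although the control array of that slide was not well above background for Cd40, Tnfrsf22 and Tnfsf9. These 2 arrays are also part of the whole comparison, so agreement in sign is partly built in, and it was not counted over all genes tested. The fixed slide term ended 7 of the 14 calls, which are named below, and slide as a random block (correlation within slides 0.01) ended none. By class, the fixed slide term left 1 ligand called lower, beside 5, and 4 receptors called higher, beside 7. With every probe tested, dim ones included, 3 ligands were lower and 4 receptors higher. With replicate number as a block, 3 ligands were lower and 7 receptors higher. In each of these fits 0 ligands were higher and 2 receptors lower.

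Promoter windows of RefSeq (assembly GRCm38.p6, 250 bases before to 50 bases after the start site) matched 31 of the 41 genes, in 35 windows. The core of the palindrome bound by EBF proteins, CCCNNGGG, was searched on both strands, alone and with a T before and an A after it, the longer form being contained in the counts of the core. The longer form was in 0 of these 35 windows, against 0.904% of all 32851 windows. The core was in 6 of 35 windows (17.1%), against 13.7% of all windows, and lay in those of Cd27, Fas, Tnf, Tnfrsf14, Tnfrsf25 and Tnfsf18. The NF-kB consensus was in 4 of 35 windows (11.4%), against 8.46% of all windows, and lay in those of Ltb, Tnfrsf25, Tnfrsf8 and Tnfrsf9. Both shares are close to those of all windows, and a match of letters is no evidence of binding. The 3 called genes with a core match are shown so that their match can be compared, with the core in capitals, on chr6:125236978-125237277 (minus strand), chr17:35201958-35202257 (minus strand) and chr4:152115684-152115983 (plus strand), all written along the strand of the gene.
Cd27: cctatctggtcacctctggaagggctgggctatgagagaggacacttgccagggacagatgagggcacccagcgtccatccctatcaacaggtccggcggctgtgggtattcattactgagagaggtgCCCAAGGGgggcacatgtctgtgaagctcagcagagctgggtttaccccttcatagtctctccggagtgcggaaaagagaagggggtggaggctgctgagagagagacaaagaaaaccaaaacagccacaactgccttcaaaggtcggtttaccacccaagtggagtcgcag
Tnf: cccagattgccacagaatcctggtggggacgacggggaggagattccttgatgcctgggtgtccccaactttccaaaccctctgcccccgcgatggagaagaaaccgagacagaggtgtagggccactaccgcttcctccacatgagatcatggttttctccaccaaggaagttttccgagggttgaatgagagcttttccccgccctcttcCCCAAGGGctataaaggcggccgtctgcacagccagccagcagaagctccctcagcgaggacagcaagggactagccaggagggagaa
Tnfrsf25: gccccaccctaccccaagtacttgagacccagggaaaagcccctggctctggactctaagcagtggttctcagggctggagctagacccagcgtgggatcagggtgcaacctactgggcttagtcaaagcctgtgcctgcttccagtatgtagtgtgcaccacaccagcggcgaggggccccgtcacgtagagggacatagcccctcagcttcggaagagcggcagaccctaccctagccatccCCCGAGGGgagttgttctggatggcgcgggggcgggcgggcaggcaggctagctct
Cd27 and Tnf, which were both lower in Ebf1 virus cells, held the same letters, CCCAAGGG, at -122 and -38 from the start site. Fas, which was not called (log2 change 0.43), held the same site read on the other strand, CCCTTGGG, at -166. Whether the letters go with a direction of change was not tested. Tnfrsf25, which was higher, held CCCGAGGG at -6. Of the called genes with a match to the NF-kB consensus, 1 that fell and 1 that rose are shown with the match in capitals, on chr17:35194257-35194556 and chr4:150927749-150928048, both on the plus strand.
Ltb: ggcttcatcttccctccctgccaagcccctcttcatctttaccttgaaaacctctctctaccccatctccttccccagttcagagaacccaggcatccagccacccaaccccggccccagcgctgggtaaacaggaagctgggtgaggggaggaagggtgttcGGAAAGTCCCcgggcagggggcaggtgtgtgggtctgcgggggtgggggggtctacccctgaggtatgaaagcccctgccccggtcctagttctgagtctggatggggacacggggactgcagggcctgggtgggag
Tnfrsf9: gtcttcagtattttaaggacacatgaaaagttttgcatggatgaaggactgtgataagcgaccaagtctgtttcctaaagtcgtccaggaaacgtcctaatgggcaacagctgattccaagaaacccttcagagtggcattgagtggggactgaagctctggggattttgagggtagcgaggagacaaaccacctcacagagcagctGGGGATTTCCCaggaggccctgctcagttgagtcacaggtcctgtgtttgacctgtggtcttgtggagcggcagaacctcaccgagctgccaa
The match began at -87 in Ltb and at -43 in Tnfrsf9, where 2 overlapping matches made the longer run of capitals.

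Cd40 encodes the receptor through which B cells receive T cell help. Its 60-base probe, printed on 10 spots of each array, lies on chromosome 2 (mm9, chr2:164896301-164896360) and is shown because it is the 1 probe that reads Cd40 here.
Cd40: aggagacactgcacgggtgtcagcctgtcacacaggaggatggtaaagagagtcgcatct
The probe read -3.34, -3.58 and -2.52 on the 3 Ebf1 virus arrays, against -6.86, -6.52 and -5.80 on the 3 control arrays. It was well above background on all Ebf1 virus arrays and on none of the control arrays, so only a bound on the change can be given. Cd40 was at least 2.94-fold higher in Ebf1 virus cells. This bound raised the control arrays to a mean of -4.70, the lowest signals well above background. The means as read were -3.15 ± 0.56 and -6.39 ± 0.54 (SD, n = 3 each), and their fitted difference had an adjusted p of 5.4e-04 (limma). That p-value rests on control readings not well above background and does not belong to the bound. The probe entered the test through the Ebf1 virus arrays alone. After normexp background correction, which adds an offset to every signal, the log2 change was 0.61 and remained called (adjusted p = 0.030).

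Tnfrsf13b (TACI), a receptor for BAFF and APRIL on B cells, rose. Its brighter probe read 3.09, 2.92 and 2.92 on the Ebf1 virus arrays, against 1.99, 1.83 and 1.73 on the control arrays. All Ebf1 virus arrays lay above all control arrays, a log2 change of 1.13 (SE 0.14, adjusted p = 0.0013) or 2.19-fold, and the difference within the shared slide was 1.26. A second probe gave 1.22 (SE 0.29, adjusted p = 0.022), but control replicate 2 was not well above background on it and normexp correction gave 0.37, which was not called (adjusted p = 0.15). This second probe reads across a splice junction, since its 60 bases span 5409 bases of chromosome 11 (mm9, chr11:60954968-60960376), and the sequence is shown for that reason.
Tnfrsf13b: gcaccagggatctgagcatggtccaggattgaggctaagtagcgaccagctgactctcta
Median scaling gave 0.82 for the brighter probe, which did not pass (adjusted p = 0.070). Tnfrsf13c, the main BAFF receptor, had levels of -1.33, -0.89 and -0.99 in Ebf1 virus cells, against -1.65, -1.64 and -1.40 in control cells. These did not overlap, but the log2 change of 0.49 (95% interval 0.10 to 0.88) was not called (adjusted p = 0.077), and it was called only without Ebf1 replicate 1 (0.62, adjusted p = 0.037). Tnfrsf17 (BCMA), the third receptor of this ligand system, was well above background on none of the 6 arrays.

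Cd27, a costimulatory receptor that also marks lymphoid progenitors, moved the other way. It read 1.72, 2.17 and 1.97 on the Ebf1 virus arrays, against 3.22, 3.12 and 3.05 on the control arrays. Every Ebf1 virus array lay below every control array, and Cd27 fell 2.25-fold (log2 change -1.17, SE 0.16, adjusted p = 0.0020, within-slide difference -1.40). Its call held under all the alternatives that were run. In a list of 5 receptors of B cell survival and costimulation, 4 were tested, and Cd40 and Tnfrsf13b rose, Cd27 fell and Tnfrsf13c was not called.

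Among receptors known best from activated T cells, Tnfrsf18 (GITR) rose. It read 3.49, 3.49 and 3.71 on the Ebf1 virus arrays, against 0.79, 0.68 and 1.30 on the control arrays. The groups were far apart relative to their spread, and the rise was 6.22-fold (log2 change 2.64, SE 0.19, adjusted p = 7.9e-05). Under the alternatives its log2 change was 2.33 to 2.82 and stayed called, and the within-slide difference was 2.81. Tnfrsf4 (OX40), the neighbouring gene on chromosome 4, whose probe begins 12.3 kb before the end of the Tnfrsf18 probe, had levels of 0.03, -0.07 and 0.10 in Ebf1 virus cells, against -0.37, -0.0012 and 0.12 in control cells. The 2 groups overlapped, and the log2 change of 0.10 (95% interval -0.29 to 0.49) was not called.

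Tnfrsf9 (CD137), a costimulatory receptor that binds Tnfsf9, rose on both probes that could be tested. The brighter read 2.49, 1.87 and 2.22 on the Ebf1 virus arrays, against 0.72, 0.91 and 1.34 on the control arrays. Ebf1 virus arrays were all above control arrays, with a log2 change of 1.20 (SE 0.22, adjusted p = 0.0083) or 2.30-fold, and a within-slide difference of 1.58. The second probe read 0.38, 0.12 and -0.04 in Ebf1 virus cells, against -1.80, -2.17 and -1.69 in control cells, a larger log2 change of 2.04 (SE 0.19, adjusted p = 2.3e-04). With every probe tested, dim ones included, the brighter probe was no longer called (adjusted p = 0.055). Another Tnfrsf9 probe was well above background on none of the arrays. Its last 40 bases are the first 40 of the promoter window printed above and end at -211, so it reads sequence upstream of the annotated start site.

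Tnfrsf25 (DR3), a receptor with a death domain, rose as well. Its probe read 0.72, 0.78 and 0.62 on the Ebf1 virus arrays, against -0.73, -0.30 and -0.43 on the control arrays. No control array reached the Ebf1 virus arrays, and the log2 change was 1.19 (SE 0.16, adjusted p = 0.0018), or 2.29-fold. The within-slide difference was 1.01, and with slide as a fixed term the call ended (adjusted p = 0.074). Another Tnfrsf25 probe was well above background only on Ebf1 replicate 3.

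Tnfrsf21 (DR6), also a death domain receptor, fell on both of its tested probes. The brighter read -2.15, -1.94 and -1.68 on the Ebf1 virus arrays, against -0.13, 0.10 and -0.34 on the control arrays. The gap between the groups was wider than either group's range, at a log2 change of -1.80 (SE 0.18, adjusted p = 4.3e-04), or 3.47-fold lower, and the within-slide difference was -2.25. The second probe gave -1.50 (SE 0.20, adjusted p = 0.0018). The call held under all the alternatives that were run, where the log2 change was -2.25 to -1.27.

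The other death domain receptors were not called. Fas gave 0.43 (95% interval 0.02 to 0.84, adjusted p = 0.12), Tnfrsf10b (the mouse TRAIL receptor) 0.08 (-0.26 to 0.41) and Tnfrsf1a, the main TNF receptor of most cells, -0.32 (-0.64 to -0.01, adjusted p = 0.13). The direction of Tnfrsf10b was negative under normexp correction (-0.01), quantile normalisation (-0.22) and median scaling (-0.23). A list of 7 death domain receptors that adds Ngfr and Edar to these had 6 tested genes, of which Tnfrsf25 and Ngfr rose and Tnfrsf21 fell.

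Tnfrsf1b, the second TNF receptor, which lacks a death domain, read -0.57, -0.64 and -0.54 on the Ebf1 virus arrays, against -1.59, -1.33 and -1.15 on the control arrays. This was a rise of 0.77 on the log2 scale (SE 0.16, adjusted p = 0.013), or 1.71-fold, with a within-slide difference of 0.76. The call ended under median scaling (0.47, adjusted p = 0.33), with slide as a fixed term (adjusted p = 0.17) and with dim probes included (adjusted p = 0.081). A second probe disagreed in size: its log2 change was 0.21 (95% interval -0.36 to 0.78, adjusted p = 0.58) and its groups overlapped. It reads across an exon junction, with 60 bases spread over 574 bases of chromosome 4 (mm9, chr4:144812866-144813439, minus strand), and is shown because only it tests that junction.
Tnfrsf1b: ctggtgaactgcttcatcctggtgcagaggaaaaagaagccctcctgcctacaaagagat
Tnfrsf26, a receptor gene of the mouse cluster on chromosome 7, read 0.46, -0.02 and 0.19 on the Ebf1 virus arrays, against -0.39, -0.60 and -0.58 on the control arrays. It rose by 0.73 on the log2 scale (SE 0.17, adjusted p = 0.020, within-slide difference 1.06), although 3 of the 6 removals of a single array ended the call. The adjusted p was 0.052 without Ebf1 replicate 3, 0.081 without control replicate 2 and 0.073 without control replicate 3, and the call also ended under median scaling (0.43, adjusted p = 0.37), with the fixed slide term (0.059) and with dim probes included (0.11). Its neighbour Tnfrsf22, a mouse decoy receptor for TRAIL, was well above background on all Ebf1 virus arrays and no control array. With the control arrays raised to no less than their lowest signals well above background, the ratio of the means was 1.04. The groups overlapped as read, and no rise was established. Tnfrsf22 was not called (log2 change 0.26, 95% interval -0.16 to 0.67, adjusted p = 0.34), and the change was negative under quantile normalisation (-0.21) and median scaling (-0.05). Tnfrsf23, the other decoy receptor there, was well above background on none of the 6 arrays.

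**Figure D2:**
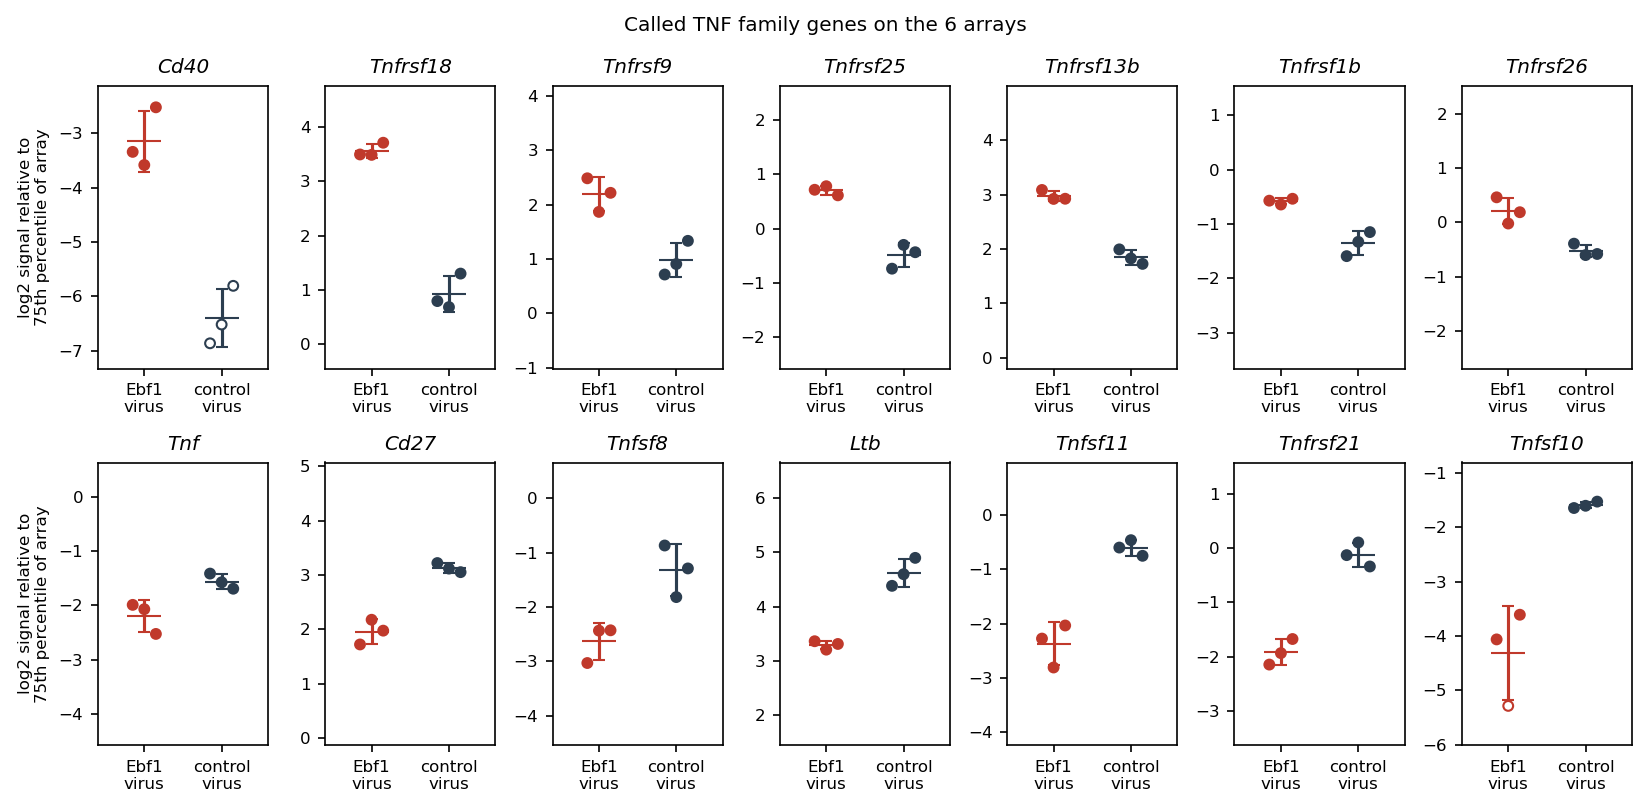
Levels (log2 signal relative to the array's 75th percentile) of the 14 called genes on each of the 3 Ebf1 virus arrays and the 3 control virus arrays, each panel with its own position but the same length of axis. Points are arrays, open where the probe was not well above background, and bars are the mean ± SD, so that Cd40 shows 3 open control points and Tnfsf10 shows 1 open Ebf1 virus point.

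All called ligands were lower in Ebf1 virus cells. Tnfsf10 (TRAIL), which induces apoptosis through death receptors, read -4.06, -5.29 and -3.61 on the Ebf1 virus arrays, against -1.64, -1.60 and -1.53 on the control arrays. The 3 control arrays were tightly grouped, and the lowest Ebf1 virus array, replicate 2, was not well above background. The log2 change was -2.73 (SE 0.39, adjusted p = 0.0022), 6.62-fold lower, and its size depended on how background was handled, since normexp correction gave -1.03 (adjusted p = 1.9e-04). The within-slide difference was -2.46, and the fixed slide term ended the call (adjusted p = 0.076).

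Tnfsf11 (RANK ligand), which drives osteoclast formation and lymph node development, read -2.28, -2.81 and -2.04 on the Ebf1 virus arrays, against -0.60, -0.47 and -0.75 on the control arrays. No array of one group came near the other, and Tnfsf11 fell by 1.77 on the log2 scale (SE 0.22, adjusted p = 0.0011), 3.40-fold lower, with a within-slide difference of -1.81. A second probe gave -1.72 (SE 0.27, adjusted p = 0.0035). Its receptor gene Tnfrsf11a (RANK) was well above background on none of the 6 arrays, and its decoy receptor gene Tnfrsf11b (osteoprotegerin) was above background on 2 arrays of each group.

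Tnfsf8, the CD30 ligand, read -3.03, -2.44 and -2.43 on the Ebf1 virus arrays, against -0.87, -1.82 and -1.29 on the control arrays. The control arrays were widely spread but lay above the Ebf1 virus arrays, and Tnfsf8 fell 2.47-fold (log2 change -1.31, SE 0.28, adjusted p = 0.014, within-slide difference -1.21). Without control replicate 3 the adjusted p was 0.0503, and the fixed slide term (0.053) and the inclusion of dim probes (0.082) also ended the call. The receptor gene Tnfrsf8 (CD30) was well above background on none of the 6 arrays.

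Ltb, Tnf and Lta lie side by side on chromosome 17, with probes within 7.24 kb (mm9, chr17:35333097-35340334), and encode lymphotoxin beta, TNF and lymphotoxin alpha. Ltb read 3.37, 3.21 and 3.32 on the Ebf1 virus arrays, against 4.39, 4.60 and 4.90 on the control arrays. The groups were well separated, and Ltb fell 2.52-fold (log2 change -1.33, SE 0.17, adjusted p = 0.0013), with a within-slide difference of -1.23 and an adjusted p of 0.062 with slide as a fixed term. Tnf read -1.99, -2.07 and -2.52 on the Ebf1 virus arrays, against -1.41, -1.57 and -1.69 on the control arrays. The log2 change of Tnf was -0.63 (SE 0.18, adjusted p = 0.046, within-slide difference -0.42), close to the threshold. This call ended in 10 of 17 alternatives, among them the fixed slide term (adjusted p = 0.45), each removal of a single array other than Ebf1 replicate 1 (adjusted p from 0.080 to 0.12) and normexp correction (-0.36, adjusted p = 0.13). Lta had levels of -2.62, -2.62 and -1.83 in Ebf1 virus cells, against -2.20, -2.44 and -1.97 in control cells, which overlapped, and its log2 change of -0.16 (95% interval -0.74 to 0.42) was not called.

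The lymphotoxin receptor gene Ltbr had levels of -0.999, -1.64 and -1.27 in Ebf1 virus cells, against -2.51, -1.71 and -1.92 in control cells. Its log2 change of 0.74 (95% interval 0.15 to 1.34) was not called (adjusted p = 0.076), and no alternative called it. In a list of 7 genes of the lymphoid organ system, 6 were tested, and Ltb and Tnfsf11 fell while Lta, Ltbr, Tnfsf14 and Tnfrsf14 were not called. Tnfsf14 (LIGHT) had a log2 change of -0.47 (adjusted p = 0.052), which was called with trend and robust variance (adjusted p = 0.042) and over probes well above background on all 6 arrays (0.049), and its receptor gene Tnfrsf14 one of -0.49 (adjusted p = 0.097). Tnfrsf14 was called without Ebf1 replicate 3 (-0.65, adjusted p = 0.046) and under quantile normalisation (-0.68, adjusted p = 0.013). Tnfsf9 (0.30, 95% interval -0.68 to 1.29) and Tnfrsf12a, the TWEAK receptor gene (0.32, -0.09 to 0.73), completed the genes that were tested and not called, and Tnfsf9 was -0.13 without Ebf1 replicate 3.

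Of 22 ligand and receptor pairs known from textbooks, 9 had both partners tested. Tnf and Tnfrsf1b were the 1 pair with both partners called, the ligand lower and the receptor higher. The call of Tnf ended in 10 of 17 alternatives and that of Tnfrsf1b in 3 of 18. The second tested probe of Tnfrsf1b was not called, so this pair is not a stable result. In 5 pairs the receptor was called and the ligand was not well above background on all arrays of either group: Cd40 with Cd40lg, Cd27 with Cd70, Tnfrsf13b with Tnfsf13b, Tnfrsf25 with Tnfsf15 and Tnfrsf18 with Tnfsf18. For Tnfsf11 and Tnfsf8 it was the ligand that was called and the receptor that could not be tested.

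The 15 untested genes were Cd40lg, Cd70, Fasl, Tnfrsf11a, Tnfrsf11b, Tnfrsf17, Tnfrsf19, Tnfrsf23, Tnfrsf8, Tnfsf12, Tnfsf12-tnfsf13, Tnfsf13b, Tnfsf15, Tnfsf18 and Tnfsf4. Of the 26 untested probes of the family, 12 were not well above background on any array. Another 8 were well above background on 1 array and 6 on 2 to 4 arrays. By array, 2, 0 and 11 of the 26 were well above background on Ebf1 replicates 1 to 3, against 4, 2 and 5 on control replicates 1 to 3. Ebf1 replicate 3, the array with the highest share of spots above background, thus held more of them than any other array. Tnfsf18 read -7.69, -7.20 and -6.30 on the Ebf1 virus arrays, none well above background, and -3.80, -2.40 and -7.22 on the control arrays, 2 of which were well above background.

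For 7 genes (Cd40, Fas, Fasl, Lta, Tnf, Tnfrsf1a and Tnfrsf1b) a probe was printed on 10 spots, which gives the error of a single reading within an array. Where such a probe was well above background, the SD over spots had a median between 0.05 for Tnfrsf1a and 0.23 for Fasl. For Tnf it was at most 0.10, while the 3 Ebf1 virus arrays spread with an SD of 0.29 and the 3 control arrays with one of 0.14. The spread between arrays of Tnf was thus wider than its spread between spots in both groups. Tnfrsf1b varied between spots by 0.07 to 0.10, beside an SD between arrays of 0.05 in Ebf1 virus cells and 0.22 in control cells.

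**Figure D3:**
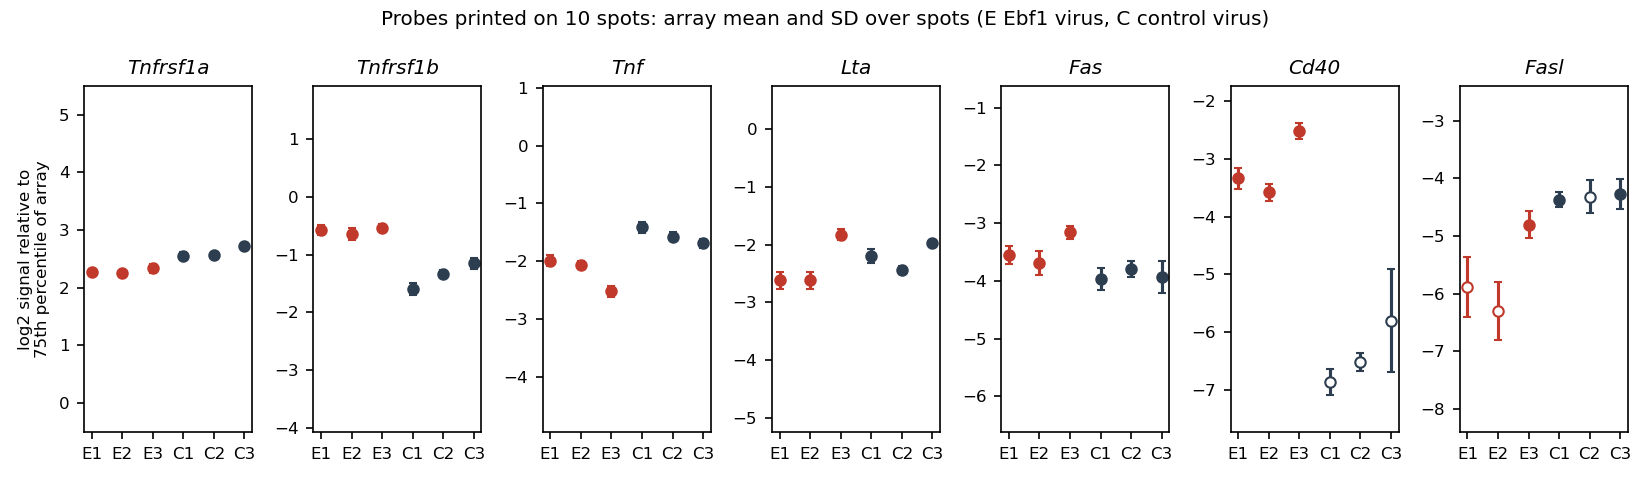
Level of the 7 probes printed on 10 spots, as the mean and SD over spots on each array (E1 to E3 Ebf1 virus, C1 to C3 control virus; log2 signal relative to the array's 75th percentile). Open points were not well above background, and the bars of Tnf and Tnfrsf1b are narrower than the distance between the 2 groups.

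**Figure D4:**
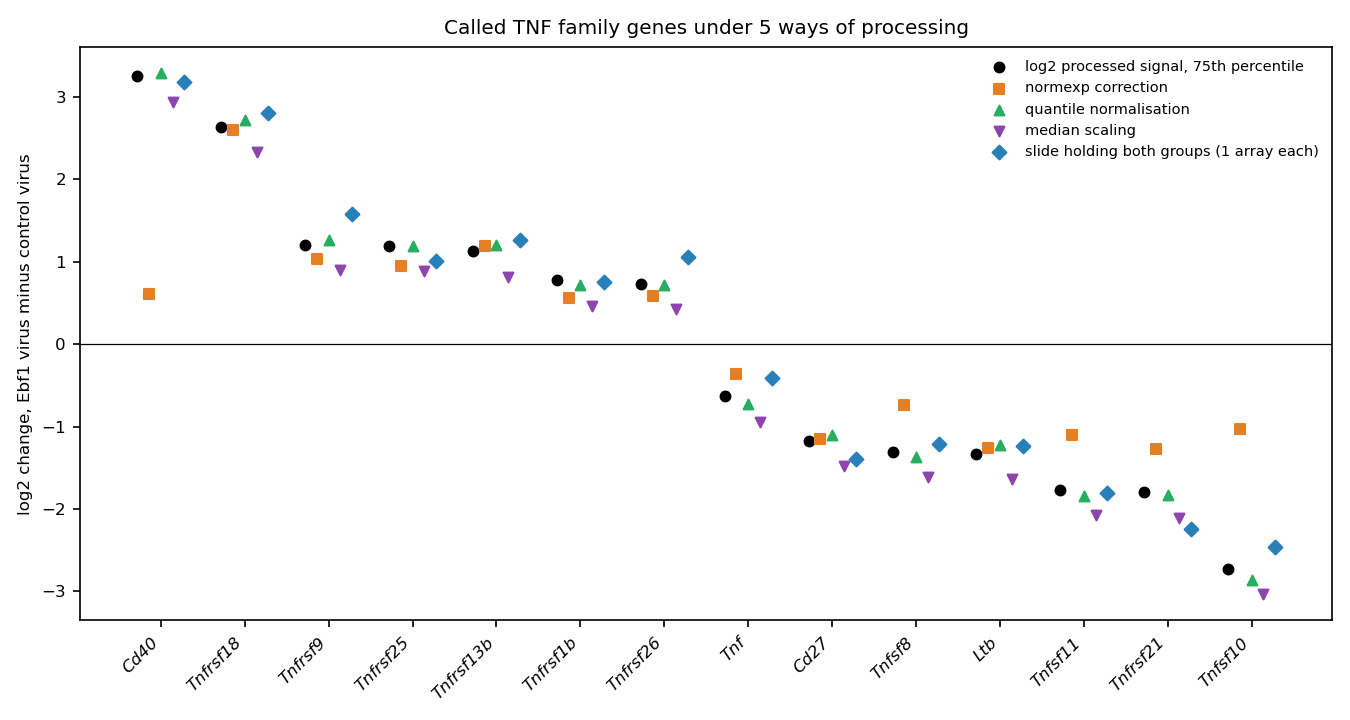
Log2 change (Ebf1 virus minus control virus) of the 14 called genes under 4 normalisations of the 6 arrays and on the 1 slide that held both groups. No gene changes sign, and normexp correction gives smaller changes for dim genes, such as -1.03 in place of -2.73 for Tnfsf10. The points of Cd40 are fitted values and no sizes, since no control array was well above background.

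Genes downstream of the receptors were described by 4 lists, which held 75 genes on the array, 69 of them tested. Over these lists 10 genes were called higher and 4 lower, shares of 14.5% and 5.80% beside 12.6% and 11.0% of all genes tested, and the median log2 change was 0.01. The share called higher was near that of all genes and the share called lower was smaller, with no test of either. Of 27 adaptors and death signalling genes, 4 rose and 3 fell. Traf3ip2 (Act1, an adaptor of the interleukin 17 receptor) rose by 1.30, Traf3ip1 by 1.12, Map3k5 (the stress kinase ASK1) by 0.68 and Traf3, an inhibitor of non-canonical NF-kB signalling, by 0.52 on the log2 scale (adjusted p 0.0011 to 0.038). Diablo, which counters inhibitors of apoptosis, fell by 1.05, Fadd, the adaptor between death domains and caspase-8, fell by 1.02, and Mlkl, the effector of necroptosis, fell by 0.63 on the log2 scale (adjusted p 0.0015 to 0.037). Traf3ip1, Map3k5, Diablo and Fadd each had a second tested probe, which was not called. The call of Traf3 ended with normexp correction (adjusted p = 0.052).

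Of 24 tested genes of the ubiquitin and kinase steps to NF-kB, 2 rose and none fell, and the median log2 change was -0.0041. Relb, the subunit of the non-canonical pathway, rose by 1.19 (SE 0.18, adjusted p = 0.0029) and Tnip1, a binding partner of A20, by 0.55 (SE 0.15, adjusted p = 0.040). Nfkb1 had a log2 change of -0.70 on its brightest probe, which was not called (adjusted p = 0.13), although 2 of its 4 tested probes were. Of 14 tested genes known to be induced by TNF through NF-kB, Tnfaip2 and Csf1 rose by 0.77 and 0.64 on the log2 scale (adjusted p = 0.040 and 0.020). Neither remained called with normexp correction (adjusted p = 0.063 and 0.058). In the same list Csf2, which encodes GM-CSF, fell by 2.84 on the log2 scale (adjusted p = 0.0016), and 11 were not called. Csf2 was well above background on 1 of 3 Ebf1 virus arrays, and normexp correction gave -0.77 (adjusted p = 0.0053). Among 8 genes of ligand shedding and processing, Rhbdf2 rose by 2.20 (SE 0.18, adjusted p = 1.3e-04) and Rhbdf1 by 1.15 (adjusted p = 0.048). The control level of Rhbdf1 was well above background on 1 array, and its call ended with normexp correction (0.19, adjusted p = 0.54). Both encode the inactive rhomboid proteins that bring ADAM17, the sheddase of TNF, to the cell surface, and Adam17 itself was not called. The count of signalling genes called higher was 3 under median scaling and 6 under normexp correction, against 10 here.

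**Figure D5:**
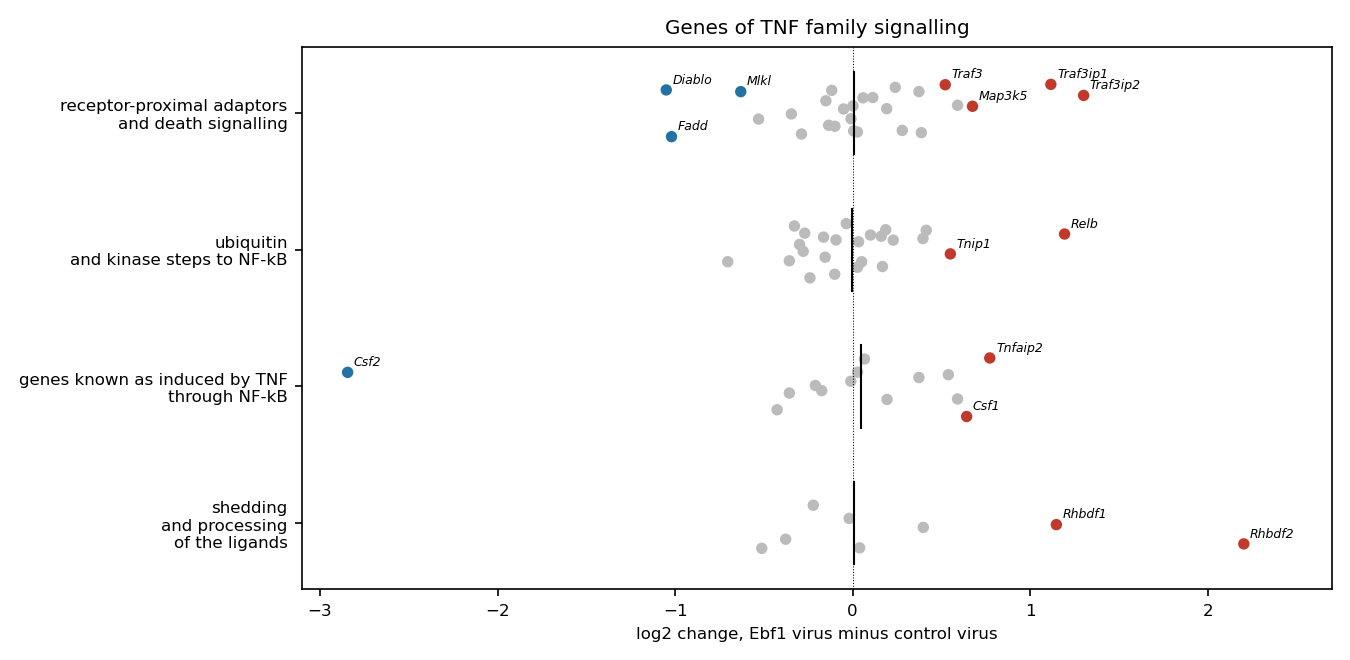
Log2 change (Ebf1 virus minus control virus) of each tested gene in the 4 signalling lists, 1 point a gene. Called genes are coloured and named, the bar is the median of the list, and all 4 medians lie near 0.

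Markers of other cell types were read beside these changes. Of 10 tested markers of the stromal feeder cells, 3 were higher in Ebf1 virus cells (Col5a1, Fn1 and Fstl1) and none was lower, with a summed linear level of 28.6 to 37.5 times the 75th percentile in Ebf1 virus cells, against 19.6 to 26.97 in control cells, and with Postn not above background on any array. Pdgfrb, Col1a2 and Col1a1, whose brightest tested probes were not called, made up most of these sums. Of the 10 tested stromal markers, 9 had a positive log2 change, with a median of 0.61. Of 5 tested T cell markers, 3 were lower, with sums of 10.7 to 11.9 in Ebf1 virus cells, against 12.9 to 13.5 in control cells, and Cd8a was not above background. Lck, which was not called (log2 change -0.11, adjusted p = 0.60), made up most of these sums, while Cd3g, Cd3d and Trat1 fell by 1.53, 1.76 and 1.91 on the log2 scale. Of 5 tested dendritic cell markers, 3 were lower, with sums of 53.1 to 59.4 in Ebf1 virus cells, against 73.6 to 84.5 in control cells. Bst2, which was not called (log2 change -0.43, adjusted p = 0.079), made up most of these sums. Itgax, Ccr9 and Siglech fell by 2.69, 2.50 and 1.03 on the log2 scale, and Flt3 had 0.67, not called. Of 4 tested myeloid markers, 1 was higher and 2 were lower (sums 1.24 to 1.79 in Ebf1 virus cells, against 3.84 to 5.32 in control cells, Csf3r not above background). Mpo, which fell by 1.77 on the log2 scale, made up most of these sums, while Fcgr1 fell by 2.29 and Csf1r rose by 1.69. Of 3 tested markers of natural killer and innate lymphoid cells, 1 was higher and 1 was lower (sums 50.04 to 59.4 in Ebf1 virus cells, against 26.7 to 28.1 in control cells, Klrb1c not above background). The sum in Ebf1 virus cells was carried by Gzma, which rose by 5.36 on the log2 scale, while Il2rb fell by 2.19 and Id2 had -0.62, not called (its other tested probe was called). Of 9 tested markers of early lymphoid progenitors, which the labelled cells are, 2 were higher and 4 were lower. The part of such cells in the changes of the TNF family was not tested.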

How the data were processed

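RNA of 6 sorted samples, 3 per group, was labelled with Cy3 and read on 1-colour Agilent arrays with 60-base probes. Groups and replicate numbers come from the sample titles. Per the file headers, the authors extracted spot intensities with Agilent Feature Extraction 10.5.1.1, whose 1-colour protocol corrects for background, and the headers record no step that brings arrays to 1 scale. The deposited value table equalled the processed signal, with no centring and no ratio, and gave the same results.

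After removal of outlier spots (65 to 116 per array, by the software's flag), the log2 signal was scaled to each array's 75th percentile over non-control spots, and spots of a probe were averaged. A probe was tested when well above background on all 3 arrays of a group, which kept 20452 of 41174 probes. No spot was saturated. limma 3.58.1 (lmFit, eBayes) in R 4.3.3 (reader package data.table, version 1.17.8) was fitted over all tested probes, with 2-sided tests and Benjamini-Hochberg adjustment, and was tested on simulated data. Simulated log2 changes of 0.5, 1, 1.5 and 2 were called in 0%, 46%, 90% and 96% of 50 probes each, with 6 false calls. Far fewer probes were changed in the simulation than were called here, so these shares are not those of the real fit. A gene that was not called is not shown to be unchanged. The number of arrays limits the precision. "At least" folds raise each dim array to its lowest signal well above background. Probe positions are those of mm9, per the file headers. Accessions of 25097 probes matched a RefSeq table for GRCm38.p6, which updated their symbols.

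The members and gene lists were chosen with earlier results of these data known. The summed level of the progenitor marker list is not reported here. All called members are named with every array's value, and of each signalling list up to 4 called genes with the smallest p in each direction. Alternatives were normexp (offset 50), quantile and median normalisation, other filters, slide and replicate blocks, trend and robust variance, all probes of a gene, and each array left out. Same-numbered replicates did not deviate together (correlations -0.17, -0.25 and 0.10 for numbers 1, 2 and 3), so the numbers were not taken as pairs. The slide that held both groups was added as an alternative after seeing the data.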

Additional observations from a re-analysis of the deposited data

How the results depend on the processing

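Of the 14 called genes, 5 (Cd27, Cd40, Tnfrsf18, Tnfrsf21 and Tnfsf11) kept their call in every alternative that could test them, 9 lost it in at least 1, and none changed sign. Cd40 and Tnfsf10 could not be tested where a probe had to be well above background on all 6 arrays. Cd40 entered the test through the Ebf1 virus arrays alone. Its kept calls rest on control readings not well above background, so they do not show a stable size. The count of member genes called higher, 7 here, was 4 under median scaling, without a filter on dim probes and with slide as a fixed block, and the count called lower, also 7, was 3 with slide as a fixed block. Leaving out each array gave 6 to 8 genes higher and 6 to 7 lower. By probe, 5 were higher without a filter and 4 lower with the slide block, beside 9 and 9, and 7 to 10 and 8 to 9 with an array left out. The slide block uses 2 arrays of 1 slide for its estimate.

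Over all probes, 2349 were higher and 2085 lower. Median scaling gave 1256 higher, no filter gave 1341 higher and 655 lower, and the fixed slide block gave 1269 higher and 898 lower. Leaving out an array gave 1592 to 2125 higher and 1016 to 1687 lower. The replicate block gave 1862 higher and 1233 lower, and among the members it ended the calls of Tnf (adjusted p = 0.058) and Tnfsf8 (0.052) and no other. Of the signalling genes, 10 were higher and 4 lower. The higher count was 6 with normexp, 3 under median scaling, 3 without a filter and 5 with the slide block, and 5 to 8 with an array left out (3 to 4 lower, with the lower count of normexp at 6). For the lower count the cause was not tested.

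Directions that turned belonged to genes that were not called. Tnfrsf10b was -0.011 with normexp, -0.22 with quantile and -0.23 with median normalisation. Tnfrsf22 was -0.21 with quantile and -0.052 with median normalisation. Tnfrsf4 was -0.019 with normexp, -0.21 with median scaling and -0.041 to 0.20 with an array left out, negative without control replicate 1. Tnfsf9 was -0.0042 with median scaling and -0.13 to 0.62 with an array left out, negative without Ebf1 replicate 3. The cause was not tested for these. Signal over background limits what can be said of the 15 untested genes and of the size of the changes in Cd40 and Tnfsf10.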

Other observations

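Among 8 genes of the family or its partners that the naming rule does not take in, 2 could be tested. Ngfr, the low-affinity nerve growth factor receptor gene, read -2.23, -2.39 and -2.59 on the Ebf1 virus arrays, against -4.95, -4.64 and -4.47 on the control arrays. The groups were far apart, with a log2 change of 2.29 (SE 0.18, adjusted p = 1.1e-04 by limma, within-slide difference 2.42), although only 1 control array was well above background and normexp correction gave 0.71 (adjusted p = 0.0090). Relt had levels of 0.52, 1.45 and 1.28 in Ebf1 virus cells, against 1.03, 0.76 and 0.75 in control cells, and was not called (log2 change 0.24, adjusted p = 0.53). Btla was well above background on 1 array of each group, and Eda, Edar, Eda2r, Edaradd and Cd160 on none.

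Of 9 clusters of family members whose probes lie within 200 kb of each other, 5 had at least 2 tested members, and in 1 of these, Ltb with Tnf, at least 2 members were called. On chromosome 6, Cd27 fell while Ltbr and Tnfrsf1a, within 129 kb, were not called. On chromosome 4, Tnfrsf18 rose and Tnfrsf4 was not called, and Tnfsf8 fell while Tnfsf15 was not well above background on all arrays of either group. On chromosome 17, Ltb and Tnf fell and Lta was not called. Whether the changes of neighbours differ from each other was not tested.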
